A study of Mus musculus with 3 samples.

Results

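The 7 genes described here encode the class II major histocompatibility complex (MHC) proteins of the mouse and the proteins that assemble and load them. They were taken as a list of symbols: *H2-Aa* (ENSMUSG00000036594), *H2-Ab1* (ENSMUSG00000073421) and *H2-Eb1* (ENSMUSG00000060586) for the chains of the surface molecules, *Cd74* (ENSMUSG00000024610) for the invariant chain, *H2-DMa* (ENSMUSG00000037649) and *H2-DMb1* (ENSMUSG00000079547) for the peptide exchange molecule, and *Ciita* (ENSMUSG00000022504) for the transcriptional coactivator. All 7 were found among the 31053 genes of the count matrices.

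Droplet-based single cell RNA sequencing was performed on the iridocorneal angle region of eyes from mice aged 6 weeks, with 2 control libraries (*Angpt1* flox/flox) and a single knockout library (*Angpt1* flox/flox;Wnt1Cre+, called *Angpt1*ΔNC). Each library pooled 4 to 6 eyes of 2 to 3 mice of mixed strain, carried for 2 generations onto ICR, so the library is the replicate and the knockout has only 1. Wnt1-Cre acts in neural crest derivatives, which include the stroma of the anterior segment, and not in blood-derived or endothelial cells. The pools were said to hold males and females, but *Xist*, the transcript of the inactive X chromosome, stood at 0.0390 and 0.0249 CPM in control replicates 1 and 2 and at 652 CPM in *Angpt1*ΔNC, so sex and genotype cannot be told apart by library.

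From here on, values in a row of 3 belong to control replicate 1, control replicate 2 and *Angpt1*ΔNC in this order. The authors kept 9076, 10160 and 6772 cells, which held 76981606, 80346829 and 66484181 UMIs (unique molecular identifiers) at medians of 6329.5, 6393.5 and 7444 UMIs per cell. Doublets predicted by the authors were removed before these cells were clustered, and no doublet caller was run here. The 3 pairs of libraries shared 25, 14 and 13 barcodes of kept cells. *Angpt1*, the targeted gene, had 37.8, 39.3 and 0.391 CPM in all kept cells and 134, 114 and 0.898 in the cells of labels TM1 to TM11, called the TM labels here. Label TM2 among them is named as corneal endothelium. Each kept cell carries 1 of 35 cluster labels that the authors deposited. Since clusters were built from the same genes, differences between labels are described without a test.

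Class II molecules are pairs of an alpha and a beta chain that present peptides of the endosomal pathway to CD4 T cells. The invariant chain, CD74, guides new pairs out of the endoplasmic reticulum, and H2-DM then helps to replace its last fragment with a peptide. CIITA does not bind DNA itself but acts with the RFX, NF-Y and CREB factors on the promoters of all these genes, in dendritic cells, B cells and macrophages without a stimulus and in many other cells, endothelium included, after interferon-γ.

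Nearly all class II RNA of the kept cells lay in 4 labels of blood-derived cells, 22 to 25. Label 22 (89, 133 and 105 cells) was led by lymphocyte genes, with the B cell genes *Igkc* and *Cd79a*, the T cell genes *Cd3g* and *Trbc2* and the killer cell gene *Nkg7* among its 10 leading genes. Labels 24 (515, 659 and 401 cells) and 25 (56, 81 and 58 cells) had the macrophage complement genes *C1qa*, *C1qb* and *C1qc* among their 10 leading genes, in label 24 behind *Ccl4*, *Ccl3* and *Tnf* and in label 25 behind *Aif1*, *Fcrls* and *Lyz2*. Label 23 (70, 142 and 86 cells) had *Ccr7* as well as *H2-Eb1* and *H2-Ab1* among its leading genes and is called by its number, since no marker list gave more than 1 of them. The UMIs of *H2-Aa*, *H2-Ab1*, *H2-Eb1* and *Cd74* together, called class II UMIs from here on, came to 124382, 169668 and 112990. Labels 22 to 25 held 98.3, 98.6 and 97.8% of them, with 71.5, 69.2 and 57.2% in label 24 and 23.5, 25.0 and 37.3% in label 23. The division between labels 23 and 24 thus differed between *Angpt1*ΔNC and both controls. Label 24 made up 5.67, 6.49 and 5.92% of the kept cells and label 23 0.771, 1.40 and 1.27%, and pooled over their cells they had 257, 251 and 219 and 630, 446 and 610 class II UMIs per 10,000. Over all called cells, with those the authors removed, labels 22 to 25 held 84.8, 82.8 and 81.1%, and the removed cells 13.7, 16.0 and 17.1%.

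**Figure D1:**
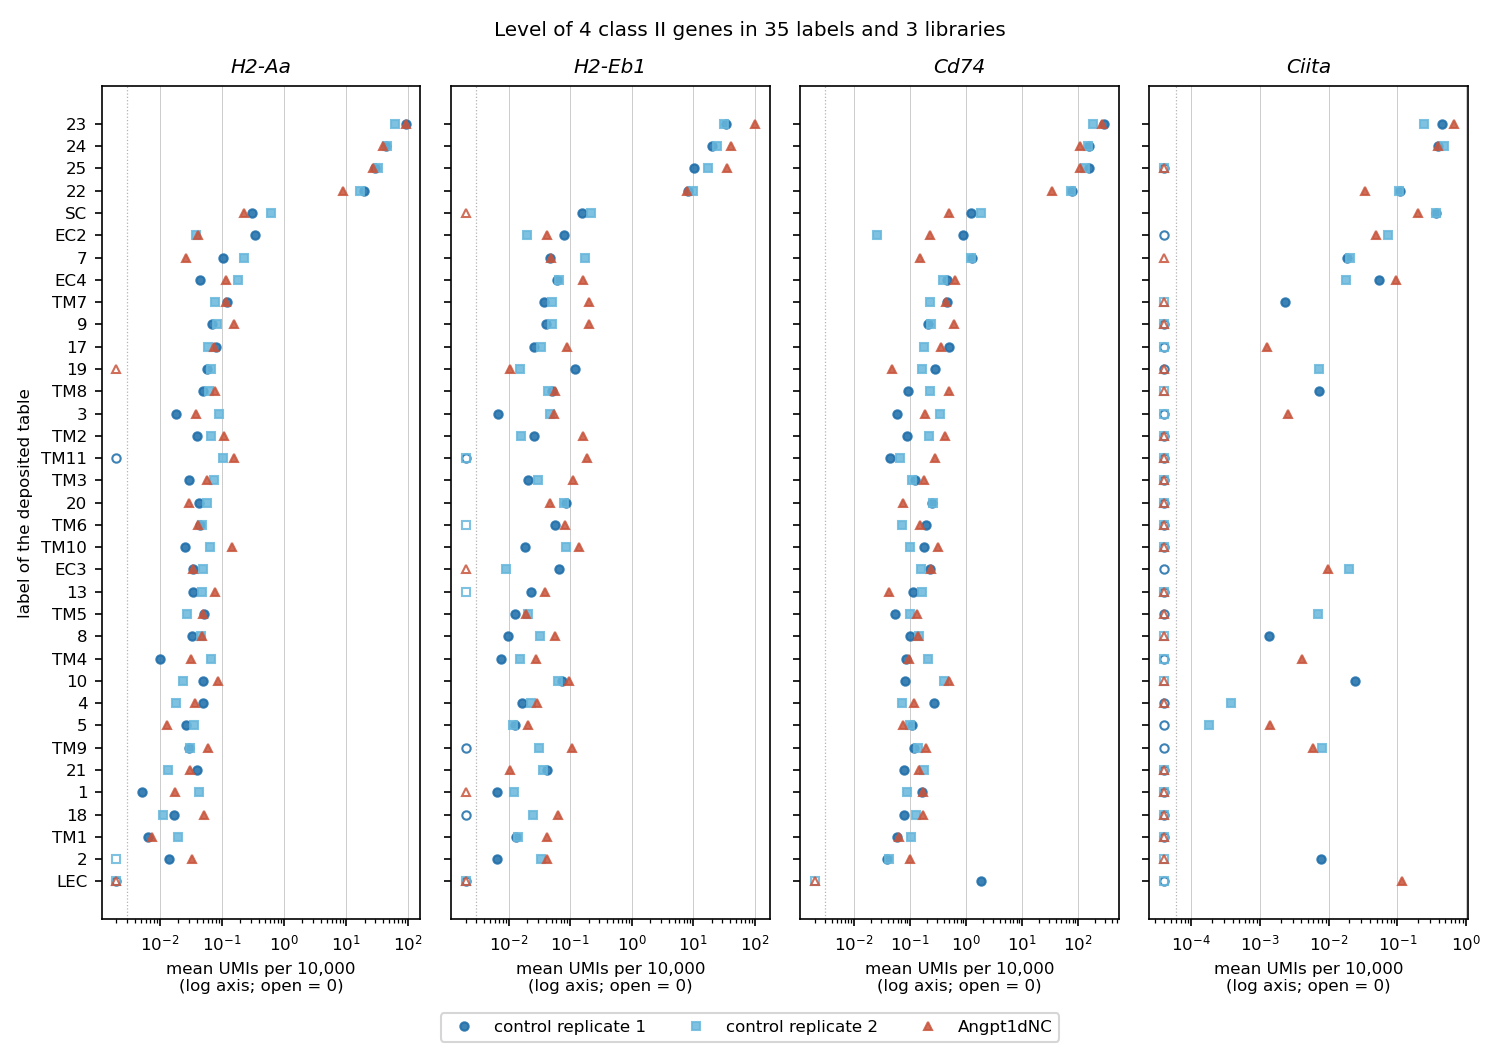
Mean UMIs per 10,000 of *H2-Aa*, *H2-Eb1*, *Cd74* and *Ciita* over the kept cells of each of 35 labels (vertical, ordered by *H2-Aa* in the controls) on a log axis. Each symbol is 1 library, and open symbols left of the dotted line are values of 0. Labels 23, 24, 25 and 22 stand far above all others for the first 3 genes. For *Ciita*, label SC (Schlemm's canal endothelium) lies beside labels 23 and 24 and label 25 is at 0.

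The classical chains were highest in label 23. *H2-Aa*, the alpha chain of the A molecule, had 93.3, 60.9 and 92.4 UMIs per 10,000 in label 23, 44.1, 45.2 and 39.3 in label 24, 29.5, 32.5 and 27.0 in label 25, and 19.7, 16.7 and 8.91 in label 22. The next label was SC with 0.310, 0.630 and 0.228. In the order 23, 24, 25, 22 and SC no neighbours overlapped over the 3 libraries, while SC overlapped the endothelial label EC2 and from there every label overlapped the next at least in part. *H2-Ab1*, its beta chain partner, had 89.1, 63.6 and 97.0 in label 23, 41.7, 45.3 and 37.7 in label 24, 24.4, 34.5 and 25.6 in label 25 and 20.8, 20.5 and 10.9 in label 22, the same order. Below them came SC with 0.355, 0.455 and 0.0748 and label 10 with 0.450, 0.319 and 0.166, which overlapped. *H2-Ab1* was found in 28.3, 28.6 and 6.67% of SC cells, 11.6, 12.8 and 4.29% of label 10 cells and 14.3, 15 and 8.85% of label 3 cells.

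*H2-Eb1*, the beta chain of the E molecule, had the same labels on top but not the same spacing between libraries. It had 34.5, 32.0 and 102 UMIs per 10,000 in label 23, 20.4, 24.9 and 41.2 in label 24, 10.5, 17.4 and 36.3 in label 25 and 8.21, 9.81 and 8.02 in label 22. In labels 23, 24 and 25 *Angpt1*ΔNC was above both controls, so that these 3 labels overlapped each other, while label 22 lay below all of them. The alpha chain of the E molecule (*H2-Ea* or *H2-Ea-ps*) was not analysed here.

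*Cd74* followed the same labels. Its levels were 296, 185 and 264 per 10,000 in label 23, 158, 153 and 110 in label 24, 157, 134 and 107 in label 25 and 79.6, 74.2 and 34.2 in label 22. Labels 24 and 25 overlapped, and the other neighbours among these labels did not. Below them came SC with 1.21, 1.87 and 0.488 and label 7 with 1.30, 1.24 and 0.154, against a median of 0.121, 0.161 and 0.173 over the 30, 30 and 31 labels outside 22 to 25 with at least 10 cells.

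The chains of the exchange molecule were spread more widely. *H2-DMa* had 4.15, 3.47 and 4.14 UMIs per 10,000 in label 23, 2.94, 3.44 and 2.04 in label 24, 3.53, 3.31 and 1.48 in label 25 and 1.21, 1.37 and 0.290 in label 22. Label 25 overlapped both label 23 and label 24, and label 22 lay below all of them. *H2-DMb1* had 4.81, 4.01 and 4.89 in label 23, 2.11, 2.25 and 2.30 in label 24, 2.01, 1.46 and 1.56 in label 25 and 0.614, 0.727 and 0.297 in label 22, without overlap of neighbours. Only 84.1, 88.2 and 89.6% of the *H2-DMa* UMIs and 76.9, 78.7 and 65.8% of the *H2-DMb1* UMIs were in labels 22 to 25, less than for the class II UMIs.

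Outside labels 22 to 25, single labels stood out for the exchange chains. In label TM1, *H2-DMa* was found in 50 of 159 cells (31.4%), 49 of 148 (33.1%) and 9 of 115 (7.83%), at 0.347, 0.365 and 0.0732 UMIs per 10,000 and median depths of 13469, 12017.5 and 10273 UMIs. Both controls were above *Angpt1*ΔNC there. The exact 95% intervals were 24.3 to 39.3%, 25.6 to 41.3% and 3.64 to 14.3% (Clopper-Pearson). They cover counting error over cells only and do not compare the genotypes. *H2-Aa* had no more than 0.0194 UMIs per 10,000 in TM1 in any library. In label 21 the order of the libraries was the opposite, with *H2-DMa* at 0.0894, 0.164 and 0.350 UMIs per 10,000 (8, 13 and 12 UMIs). *H2-DMb1* had 0.229, 0.119 and 0.328 in label 1 (133, 81 and 17 cells), 0.0888, 0.219 and 0.323 in SC (4, 9 and 5 UMIs), 0.109, 0.165 and 0.285 in TM1 and 0.121, 0.115 and 0.336 in label 7, with *Angpt1*ΔNC on top in each. These labels were picked after their values were seen, and no test was run in them alone.

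*Ciita*, which is needed for class II transcription, had few UMIs everywhere. It had 0.441, 0.244 and 0.658 UMIs per 10,000 in label 23, 0.396, 0.476 and 0.390 in label 24, 0.367, 0.359 and 0.198 in SC and 0.110, 0.106 and 0.0337 in label 22. Label 23 overlapped both label 24 and SC, while SC lay just below label 24, so for *Ciita* an endothelial label lay near the labels with the most class II RNA. Label 25 had no *Ciita* UMI in 56, 81 and 58 cells, at a median depth of only 1456, 1728 and 1321 UMIs. This allows shares of up to 5.36, 3.70 and 5.17% of cells with a UMI and sets no limit on the share that expresses *Ciita*. In labels 22 to 25 lay 79.9, 81.4 and 90.4% of all *Ciita* UMIs. Of those outside, 71.1, 85.5 and 72.2% were in the 5 endothelial labels (EC2, EC3, EC4, SC and LEC), and the median of the labels outside 22 to 25 was 0 in each library.

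Shares of cells with a UMI were read beside labels 4 and 5, the limbal and corneal epithelium, taken as a reference of low class II levels. In label 24, *H2-Aa* was found in 384 of 515 cells (74.6%, 95% interval 70.6 to 78.3), 522 of 659 (79.2%, 75.9 to 82.2) and 258 of 401 (64.3%, 59.4 to 69.0), where the median cell had 6577, 6554 and 6903 UMIs. In labels 4 and 5 it was found in 20 of 989 (2.02%), 42 of 1012 (4.15%) and 28 of 911 (3.07%) at 17717, 15168.5 and 15135 UMIs. After each cell was thinned to 2000 UMIs the shares were 69.8, 70.6 and 55.8% in label 24 and 0.102, 0.794 and 0.442% in labels 4 and 5. The *H2-Aa* share of label 24 is therefore far above that of the deeper cells of labels 4 and 5, in every library.

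Within a label the cells were far from alike. In label 24 the median cell had 181, 189 and 67.8 class II UMIs per 10,000, while 62.7, 59.5 and 45.9% of its cells had over 100 and 6.02, 2.88 and 6.98% had none. Label 23 had medians of 615, 196 and 653 with a lower quartile at 12.97, 7.07 and 152, and label 25 medians of 75.9, 65.7 and 16.5. In label 22 the median cell had 0, and 60.7, 56.4 and 70.5% of the cells had none. The label means above are thus means over cells with very high and very low levels.

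In label 22 nearly all class II RNA was in cells with B cell genes. Cells with UMIs of the B cell list and none of the T cell list made up 30 of 89 (33.7%), 46 of 133 (34.6%) and 21 of 105 (20%), had 379, 345 and 302 class II UMIs per 10,000 and held 99.2, 96.6 and 92.3% of the label's class II UMIs. Cells with T cell UMIs alone (47, 65 and 68 cells) had 0.442, 0.639 and 1.78. *H2-DMb2*, a close copy of *H2-DMb1*, had 5.56, 3.96 and 2.66 UMIs per 10,000 in the cells with B cell UMIs alone beside 1.82, 2.103 and 1.48 for *H2-DMb1*. In label 22 the ratio of *H2-DMb2* to *H2-DMb1* UMIs was 3.09, 2.29 and 1.88, against 0.201, 0.206 and 0.301 in label 23 and 0.132, 0.152 and 0.0165 in label 24. *H2-Ob*, the beta chain of the B cell inhibitor of H2-DM, had 1.42, 1.86 and 4.45 in the cells with B cell UMIs alone.

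In label 23 the class II level differed with the marker genes of the cells. Cells with a UMI of *Ccr7*, the chemokine receptor of migrating dendritic cells (24, 24 and 43 cells), had 848, 773 and 736 class II UMIs per 10,000, and the other cells 338, 253 and 375. Cells with *Cd209a*, *Clec10a* or *Mgl2*, lectins of dendritic cells (27, 50 and 48 cells), had 816, 690 and 805 against 322, 152 and 241. Cells with the monocyte genes *Ly6c2* or *Plac8* went the other way (213, 204 and 301 against 624, 513 and 692), and so did the 7, 19 and 4 cells with the neutrophil genes *S100a8* or *S100a9* (115, 14.99 and 3.18 against 557, 392 and 582). Cells with the macrophage genes *C1qa*, *C1qb* or *C1qc* (11, 21 and 21 cells) also had more than the others (689, 499 and 625 against 480, 314 and 533). In every library the order was the same for each pair. These cells were not thinned, and depth went the same way, with medians of 8049, 8717.5 and 9189 UMIs with *Ccr7* against 5159.5, 5509 and 6393, and of 1606, 1320 and 1620 with *S100a8* or *S100a9* against 7366, 6475 and 8026.

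Macrophages of label 24 split in a like way by *Lyve1* and *Folr2*, genes of resident macrophages, and less evenly by *Cd163* and *Timd4*. These levels were taken in cells thinned to 2000 UMIs (497, 653 and 396 cells), since deeper cells show more genes. Cells with a UMI of *Lyve1*, a hyaluronan receptor of perivascular macrophages (22, 30 and 18 cells), had 35.5, 30.8 and 63.1 class II UMIs per 10,000, and those without 280, 279 and 238. Cells with *Folr2*, a folate receptor of resident macrophages (37, 33 and 51 cells), had 68.4, 57.7 and 58.0 against 285, 279 and 255. Both ratios were well below 1 in each library, at 0.127, 0.111 and 0.265 for *Lyve1* and 0.240, 0.207 and 0.227 for *Folr2*. With *Mrc1*, the mannose receptor (212, 280 and 201 cells), the levels were 173, 163 and 101 against 341, 346 and 363. *Cx3cr1*, the fractalkine receptor, made little difference (ratios 1.02, 0.919 and 0.950). *Ccr2* was seen in 4, 10 and 4 cells only, with ratios of 1.14, 1.66 and 2.28. Cells with *Cd207*, the langerin of Langerhans cells (90, 147 and 69 cells, not thinned), had 452, 443 and 443 against 225, 218 and 184. Label 25 left too few cells (14, 26 and 11) at 2000 UMIs for such a split.

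Free RNA of 1 source keeps its genes in 1 ratio in every label, so class II UMIs were set against the UMIs of 8 genes of myeloid cells (*Lyz2*, *Tyrobp*, *Fcer1g*, *C1qa*, *C1qb*, *C1qc*, *Ctss* and *Laptm5*), called tracers. In labels 23 to 25, the likely source, the ratio of class II to tracer UMIs was 1.24, 1.12 and 1.29. Over all labels outside 22 to 25 it was 0.910, 1.04 and 1.00, and in labels 4 and 5 it was 1.36 (95% counting interval 1.16 to 1.60), 1.09 (0.920 to 1.29) and 1.15 (0.970 to 1.36). In control replicate 1, however, 1 cell held 67 of the 146 class II UMIs of label 4 and 1 cell 111 of the 222 of label 5. Summed over labels, the ratio outside was thus below the source's in each library, in a sum that includes the few class II-high cells described further on. Single labels differed, with 13 of 31, 7 of 30 and 14 of 31 wholly below it. In contrast, 5 of 31 labels in control replicate 1, 4 of 30 in control replicate 2 and 3 of 31 in *Angpt1*ΔNC had an interval wholly above the source's ratio, and SC was the single endothelial one among them, in both controls. Some others of these labels owed much to few cells of 10 or more class II UMIs, such as label 9 of *Angpt1*ΔNC (351 of 387 class II UMIs in 1 cell), TM2 of *Angpt1*ΔNC (192 of 243 in 5 cells) and labels 7, 17 and 20 of control replicate 1 (134 of 202 in 3, 99 of 137 in 4 and 72 of 115 in 2 cells). Label 1 of control replicate 1 had 0 such cells, and label 7 of *Angpt1*ΔNC had only 26 of 79 class II UMIs in 1. Among the labels wholly below, 1 tracer often gave much of the tracer UMIs. *Lyz2* gave 67 of 81, 38 of 55 and 21 of 36 in TM1 and 89 of 97, 23 of 82 and 60 of 71 in label 10. *Fcer1g* gave 88 of 129 in EC3 of control replicate 1. Expression of these tracers by the labels' own cells, which would lower the ratio, was not tested.

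**Figure D2:**
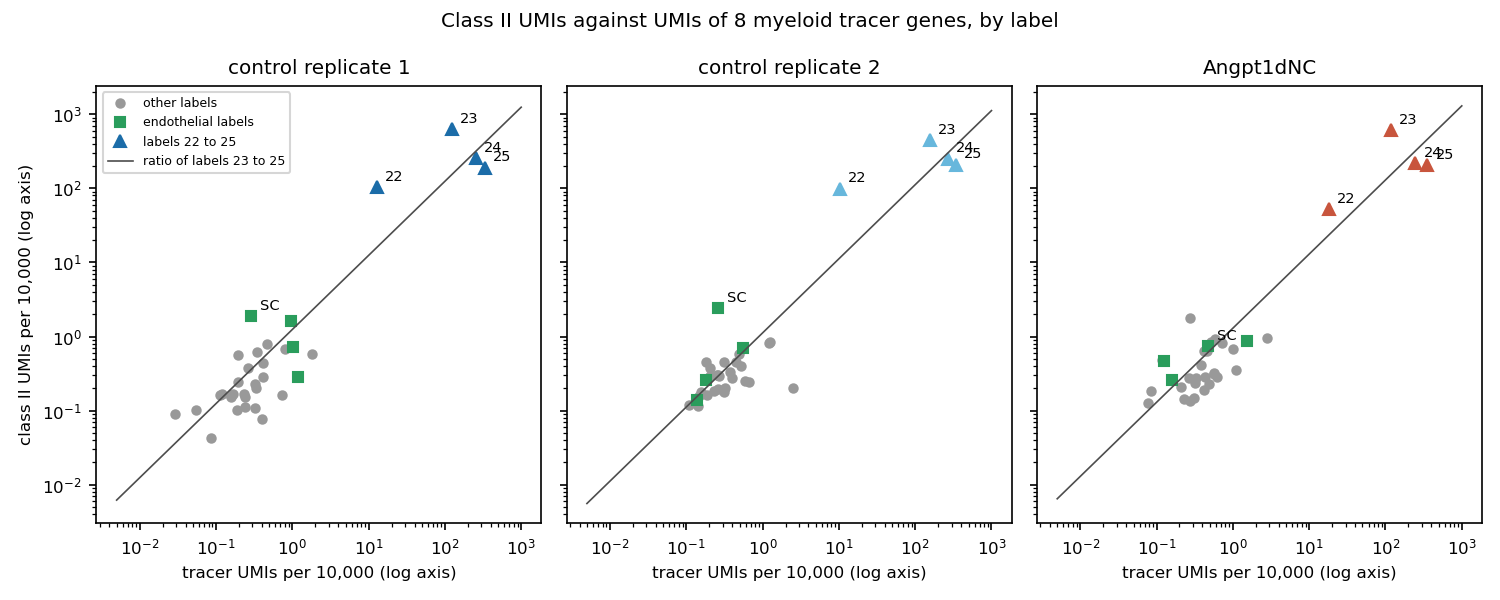
UMIs per 10,000 of *H2-Aa*, *H2-Ab1*, *H2-Eb1* and *Cd74* together (vertical) against those of 8 myeloid tracer genes (horizontal) on log axes, 1 point a label and 1 panel a library, for labels of at least 10 cells with UMIs of both kinds. The line has the ratio of labels 23 to 25 in that library. Gray and green labels with low levels scatter around the line, some of them well above or below it, label 22 with its B cells lies above it, and SC lies above it in the controls and near it in *Angpt1*ΔNC.

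Schlemm's canal endothelium (label SC, 46, 63 and 15 cells, with *Ccl21a*, *Selp* and *Lrg1* as first genes and the endothelial *Cdh5*, *Pecam1* and *Cldn5* among the 10 leading ones) had, in the controls, class II UMIs above the source's ratio as well as *Ciita*. Class II UMIs were found in 20 of 46 cells (43.5%, 95% interval 28.9 to 58.9), 38 of 63 (60.3%, 47.2 to 72.4) and 6 of 15 (40.0%, 16.3 to 67.7). The blood endothelium EC2 to EC4 had 13.8, 19.4 and 18.1% and labels 4 and 5 had 14.5, 22.3 and 19.2%, the latter at more than the depth of SC (8895, 6943 and 6505 UMIs). SC was therefore above these labels in both controls, while in *Angpt1*ΔNC the interval from 15 cells reached down to them. The 104, 164 and 11 class II UMIs of SC came with 16, 18 and 7 tracer UMIs, ratios of 6.50 (3.82 to 11.8), 9.11 (5.59 to 15.8) and 1.57 (0.556 to 4.78). The ratio also differed between the source's labels, with 5.08, 2.85 and 5.23 in label 23, 1.01, 0.934 and 0.890 in label 24 and 0.575, 0.618 and 0.577 in label 25, and it was 8.03, 9.58 and 2.93 in label 22. The SC interval held the value of label 22 in both controls and that of label 23 in control replicate 1. Free RNA of these labels as a source of the class II UMIs in SC was not tested. The single tracers were few in SC. *Laptm5* gave 152 of 298 and 237 of 433 tracer UMIs in label 22 of the controls and *Lyz2* gave 2247 of 5763 and 7285 of 14871 in label 23, while SC had 0 and 0 UMIs of *Laptm5* and 0 and 2 of *Lyz2*, and *Fcer1g* gave 13 of its 16 and 10 of its 18. *Ptprc*, which marks all leukocytes, had a UMI in 0 of 46, 0 of 63 and 0 of 15 SC cells, which allows shares of up to 6.52, 4.76 and 20%. It was itself found in only 46.2, 52.5 and 58.6% of label 24 cells and 1.79, 14.8 and 8.62% of label 25 cells, so its absence limits little. Of the class II-positive SC cells 1, 7 and 1 had any leukocyte UMI.

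*Ciita* was found in 12 of 46 SC cells (26.1%, 95% interval 14.3 to 41.1), 14 of 63 (22.2%, 12.7 to 34.5) and 3 of 15 (20%, 4.33 to 48.1). In labels 4 and 5 it was found in 0 of 989 cells, which allows a share of up to 0.303%, in 2 of 1012 (0.198%) and in 1 of 911 (0.110%), and in EC2 to EC4 in 1.63, 3.80 and 4.40% at 6329, 7304 and 7441.5 UMIs. At 2000 UMIs per cell the SC shares were 4.35, 6.67 and 6.67%. Label 24, with far more class II RNA, had *Ciita* in 16.9, 21.5 and 15.7% of its cells. Among SC cells with *Ciita*, 8 of 12, 13 of 14 and 3 of 3 also had class II UMIs, and among those without it 12 of 34, 25 of 49 and 3 of 12. Cells positive for *Ciita* were more often class II-positive in each library, although deeper cells are more often positive for both.

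Other genes of the pathway in SC gave a mixed picture. The interferon genes *Irf1* (2.29, 1.86 and 1.35 UMIs per 10,000) and *Irf8* (3.27, 1.34 and 0.741) and the co-receptor *Cd40* (0.590, 0.925 and 0.939) had UMIs. *Ctss*, the cathepsin that trims the invariant chain in professional presenting cells, had 0, 1 and 0 UMIs, and *H2-Oa* and *H2-Ob* had none. *H2-Eb1* had 7, 12 and 0 UMIs in SC, a ratio to *H2-Aa* of 0.438, 0.364 and 0. Cells with a *Prox1* UMI were class II-positive in 10 of 20, 20 of 28 and 3 of 4 cases and the others in 10 of 26, 18 of 35 and 3 of 11, while their class II level was lower in both controls (1.40 and 2.58 UMIs per 10,000 against 2.53 and 3.65) and not in *Angpt1*ΔNC (0.910 against 0.747). LEC, the lymphatic label, held only 3, 1 and 12 cells and is not described further.

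A small number of cells held much of the class II RNA outside labels 22 to 25. Cells with 10 or more class II UMIs numbered 31 of 8346 (0.371%), 37 of 9145 (0.405%) and 36 of 6122 (0.588%), and they held 43.1, 31.9 and 54.1% of the class II UMIs there. Of these cells, 71.0, 67.6 and 72.2% had a UMI of *Ptprc*, *Tyrobp*, *Fcer1g* or *Lyz2*, against 5.88, 7.47 and 9.74% of the others. The highest had 111, 64 and 351 class II UMIs, the last a label 9 cell that alone held 90.7% of that label's class II UMIs in *Angpt1*ΔNC. Most class II-high cells outside the 4 labels thus also carried leukocyte RNA. In SC there were 2, 4 and 0 such cells, none of them with a leukocyte UMI, and without them the mean SC cell of the controls had 1.79 and 2.37 class II UMIs per 10,000 in place of 2.04 and 3.17.

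The levels of each gene across labels were compared with the sum of *H2-Aa*, *H2-Ab1* and *H2-Eb1*. Over all labels, *H2-DMa* came at rank 31 (Pearson r 0.933) and *H2-DMb1* at rank 36 (0.924). Over 35 labels and 5248 genes, in log2 of the mean of both controls, *Cd74* had a Pearson r of 0.977, and the closest genes that are not members were *Cyth4* (0.980) and *Hcls1* (0.974), followed by *Laptm5*, *Itgb2*, *Cd48*, *Bcl2a1b*, *Bcl2a1d*, *Cd53*, *Ncf4* and *Rgs1* (0.959). Over the 31 labels outside 22 to 25 (4828 genes) they were *Amotl1* (0.739), *Irgm2* (0.704), *Hnrnph2*, *Ralgds*, *Psmb9*, *Ccser2*, *Gbp3*, *Chd7*, *Azi2* and *Parp12* (0.687), with *Cd74* itself at rank 25 (0.644). All labels share the 2 libraries, and these values are descriptions.

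To ask whether the genes differ between genotypes within a class of cells, UMIs were summed per library and class and tested with edgeR's quasi-likelihood test over all genes of the class, and a gene was called at a Benjamini-Hochberg adjusted p under 0.05. *H2-Eb1* rose in *Angpt1*ΔNC in labels 23, 24 and 25, while the other chains of the surface molecules were not called in any of them. In label 24 *H2-Eb1* had 2026, 2307 and 3995 CPM (TMM-scaled), a log2 change of 0.88 (SE 0.18, edgeR adjusted p 0.0116). *Angpt1*ΔNC lay above both controls, which were close together. In label 23 it had 4408, 3730 and 12580 CPM, a log2 change of 1.63 (SE 0.27, edgeR adjusted p 0.0285), again outside the range of the controls. In label 25 it had 1134, 2010 and 4461, a log2 change of 1.49 (SE 0.29, edgeR adjusted p 0.0425). There the controls differed, and the change was 1.15 without control replicate 1 and 1.97 without control replicate 2. Since *H2-Eb1* is 1 of the leading genes of label 23, the label's own borders may depend on it, which was not tested.

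Of all genes, 424 were called in label 24, 20 in label 23 and 25 in label 25. In label 24, 2 of 7 members tested were called, with 4.48% of 9454 genes called. In label 23 it was 1 of 7, with 0.34% of 5879, and in label 25 1 of 6, with 1.97% of 1271. *H2-Aa* and *H2-Ab1* in label 24 both had a log2 change of -0.15 and *Cd74* one of -0.44 (15288, 14066 and 10842 CPM, edgeR adjusted p 0.201). The members' median log2 change was -0.15 in label 24, 0.22 in label 23 and 0.03 in label 25, beside a median of -0.02, -0.01 and -0.02 over all genes. The call of *H2-Eb1* in label 24 held under every alternative with a test (adjusted p 3.68e-05 to 0.0185). In label 23 it was lost with RLE size factors (edgeR adjusted p 0.109, range over alternatives 1.47e-11 to 0.109) and in label 25 with cells thinned to 2000 UMIs (0.331, range 4.91e-07 to 0.331).

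**Figure D3:**
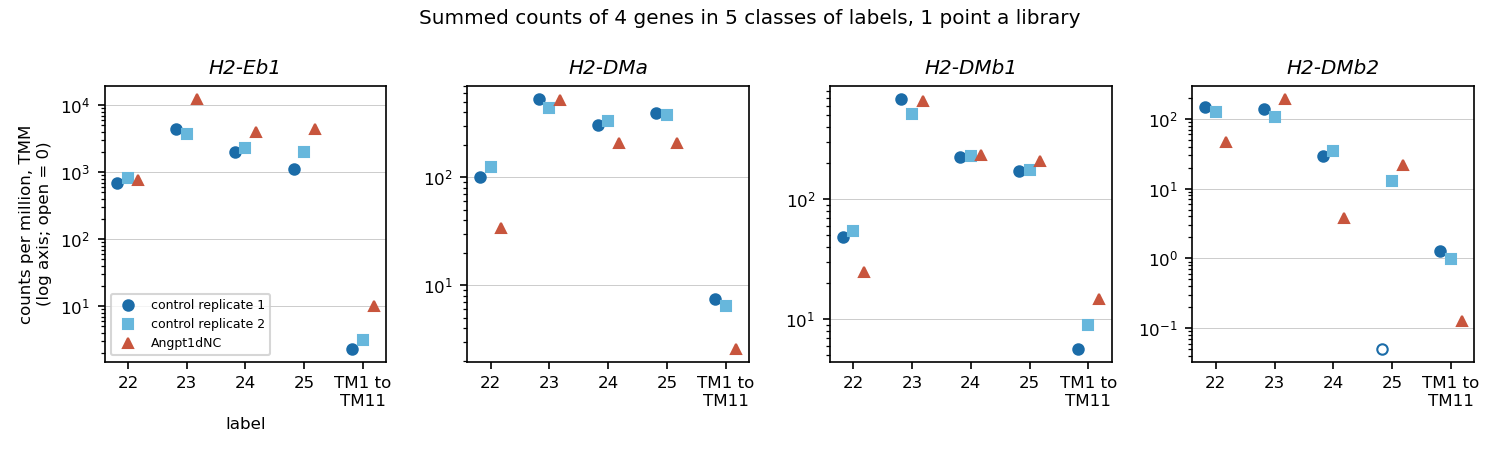
Summed CPM (TMM-scaled, log axes that differ between panels) of *H2-Eb1*, *H2-DMa*, *H2-DMb1* and *H2-DMb2* in labels 22, 23, 24 and 25 and in the TM labels (TM1 to TM11), with 1 symbol per library. *H2-Eb1* in *Angpt1*ΔNC lies above both controls in labels 23 to 25 and in the TM labels. *H2-DMa* lies below both controls in labels 22, 24 and 25 and in the TM labels, and *H2-DMb2* in labels 22 and 24 and in the TM labels. The value of 0 for *H2-DMb2* in label 25 of control replicate 1 is drawn open at the lower edge.

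The ratio of *H2-Eb1* to *H2-Aa* UMIs does not depend on scaling between libraries. In labels 23 to 25 it was 0.445 (95% counting interval 0.434 to 0.456), 0.536 (0.526 to 0.547) and 1.08 (1.06 to 1.10). Label by label it was 0.378, 0.498 and 1.13 in label 23, 0.469, 0.551 and 1.04 in label 24, 0.405, 0.563 and 1.40 in label 25 and 0.424, 0.556 and 0.902 in label 22. In each of these labels *Angpt1*ΔNC was above both controls, in label 22 too, where the *H2-Eb1* level itself was not. The ratio of *H2-Ab1* to *H2-Aa* was 0.949, 1.01 and 1.00 and that of *Cd74* to *H2-Aa* 3.48, 3.26 and 2.87, without such a distance. In *Angpt1*ΔNC cells the *H2-Eb1* ratio was 1.07 in 170 cells with Y-linked UMIs and 1.08 in 293 cells with *Xist*. In the controls' cells with Y-linked UMIs it was 0.427 and 0.520. The part of sex in this ratio was not tested.

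The ratio in single cells showed how the libraries differed. The share of *H2-Eb1* in the sum of *H2-Aa* and *H2-Eb1* was taken in cells of labels 22 to 25 with 30 or more UMIs of both together (290, 397 and 233 cells), and its median was 31.1, 34.0 and 52.1%. In the controls, 42 cells (14.5%) and 45 cells (11.3%) had a share under 10%, fewer cells (22 and 17) lay between 10 and 20%, and most lay above. In *Angpt1*ΔNC no cell was under 10% and 1 cell lay between 10 and 20%. Over 45% lay 10.0, 20.7 and 85.4% of the cells. The control distributions thus had a low group that *Angpt1*ΔNC lacked, and their main group lay lower as well.

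**Figure D4:**
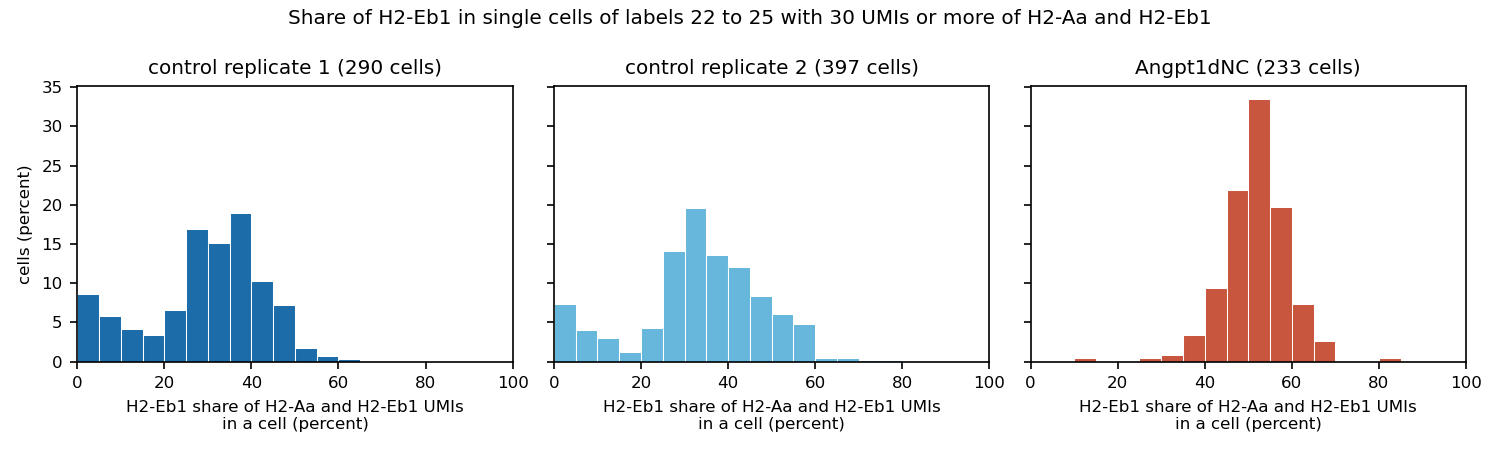
Share of *H2-Eb1* in the UMIs of *H2-Aa* and *H2-Eb1* in single cells of labels 22 to 25 with at least 30 such UMIs, as percent of the cells in bins of 5 percentage points, 1 panel a library. Both controls have a small peak near 0 and a broad peak between 25 and 45%, and *Angpt1*ΔNC has 1 peak near 50%.

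The low control cells, picked by their low share, had *H2-Aa* near the level of the others, and 90.5 and 82.2% of them had an *H2-Eb1* UMI. In control replicate 1, cells with a share under 10% had 103 *H2-Aa* and 5.12 *H2-Eb1* UMIs per 10,000, and the others 91.9 and 47.5. In control replicate 2 the low cells had 87.3 *H2-Aa* and 3.31 *H2-Eb1*, and the others 93.6 and 56.9. They were found in more than 1 label, with 10 of 46 cells in label 23 and 32 of 239 in label 24 of control replicate 1, and 4 of 72 and 39 of 313 in control replicate 2. Each pool held several mice of mixed strain, and cells could not be assigned to mice, so differences between mice cannot be told apart from differences between genotypes. Their part in the *H2-Eb1* result was not tested.

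*H2-DMa* fell in *Angpt1*ΔNC in labels 22 and 24. In label 24 it had 307, 333 and 208 CPM, a log2 change of -0.62 (SE 0.17, edgeR adjusted p 0.0495), with *Angpt1*ΔNC below both controls. The call was lost in DESeq2 (adjusted p 0.507, range over alternatives 0.00757 to 0.507), with RLE size factors, with equal numbers of cells and in cells typed as male. *H2-DMb2*, a neighbour gene for a second DM beta chain, fell further in the same cells, from 102 and 164 UMIs in the controls to 11 (29.5, 34.5 and 3.81 CPM, log2 change -3.07, edgeR adjusted p 0.000112), and kept its call under every alternative with a test (4.36e-16 to 0.00736). In label 23 *H2-DMb2* had 139, 106 and 196 CPM (log2 change 0.70, edgeR adjusted p 0.662). *H2-DMb1* had a log2 change of 0.04 in label 24. *H2-DMb1* and *H2-DMb2* share 95.4% of bases over 848 aligned bases of their transcripts, so UMIs may have been assigned between them or dropped, and each one's level is uncertain to that extent. The mix of label 24 cells, thinned to 2000 UMIs, also differed between libraries. *Folr2* was found in 7.44, 5.05 and 12.9% and *Mrc1* in 42.7, 42.9 and 50.8%, while *Lyve1* was found in 4.43, 4.59 and 4.55%. The part of this mix in the *H2-DMa* change was not tested.

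In label 22, 2 of 6 members tested were called, with 4.03% of 5185 genes called, and the members' median log2 change was -0.97 beside -0.02 over all genes. *Cd74* had 6466, 6708 and 3027 CPM, a log2 change of -1.12 (SE 0.34, edgeR adjusted p 0.0300). *H2-DMa* had 101, 125 and 33.8, a log2 change of -1.74 (SE 0.46, edgeR adjusted p 0.00680). *Angpt1*ΔNC was below both controls for both genes. All 6 genes of the B cell list were also counted there, at a summed 78.2, 48.8 and 28.1 UMIs per 10,000 with *Igkc* most abundant (46.8, 23.5 and 15.3) and none at 0, beside 20.6, 21.3 and 32.3 for the 6 T cell genes, so B cell genes moved with the class II genes, and their part in the result was not tested. In cells with B cell UMIs and no T cell UMIs *Cd74* had 236, 211 and 167 UMIs per 10,000 and *H2-DMa* 3.54, 3.75 and 1.41. *Cd74* lost its call in DESeq2 (adjusted p 0.250, range over alternatives 0.000668 to 0.286), with RLE size factors, without a filter and in thinned cells, and *H2-DMa* in DESeq2, in thinned cells and in cells typed as male (range 0.0223 to 1.00).

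In the TM labels, where *Angpt1* was deleted, 3 of 6 members tested were called, with 8.97% of 13942 genes called, at low levels. The mix of labels differed, with TM7 at 667, 739 and 174, TM8 at 591, 612 and 155 and TM9 at 204, 298 and 327 of the 2803, 3324 and 1946 cells, and its part in these changes was not tested. *H2-Eb1* had 2.29, 3.15 and 9.91 CPM, a log2 change of 1.86 (SE 0.26, edgeR adjusted p 0.00382), with *Angpt1*ΔNC above both controls. Without the 8, 12 and 14 cells of 10 or more class II UMIs, an alternative chosen after seeing the data, its log2 change was 0.83 and the call was lost (edgeR adjusted p 0.176, range over alternatives 3.22e-11 to 0.176). The ratio of class II to tracer UMIs in the TM labels was 0.579, 0.745 and 0.906, below that of labels 23 to 25 in each library, and the tracers themselves had 0.465, 0.459 and 0.555 UMIs per 10,000. The *Lyz2* UMIs of TM1 described above are among these tracer UMIs. Expression of *H2-Eb1* by cells of the TM labels could thus not be told apart from free RNA and from the few class II-high cells.

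The exchange chains moved in opposite directions in the TM labels. *H2-DMa* had 7.50, 6.39 and 2.57 CPM (141, 142 and 40 UMIs), a log2 change of -1.43 (SE 0.27, edgeR adjusted p 0.0159). Of these UMIs 74, 66 and 9 were in label TM1. *H2-DMb1* had 5.64, 8.997 and 14.7 CPM, a log2 change of 0.99 (SE 0.26, edgeR adjusted p 0.0472), and 0.71 without control replicate 1 and 1.38 without control replicate 2. *Angpt1*ΔNC lay below both controls for the alpha chain and above both for the beta chain. Both calls were lost in DESeq2 (adjusted p 0.103, range over alternatives 1.93e-05 to 0.121, for *H2-DMa*, and 0.206, range 3.98e-05 to 0.206, for *H2-DMb1*) and with equal numbers of cells, and that of *H2-DMa* in thinned cells too. *H2-DMb2*, the close copy of *H2-DMb1*, was lower in *Angpt1*ΔNC there without a call in the main test (log2 change -6.70 to -2.87 and adjusted p 0.00382 to 0.346 over alternatives). Over all labels outside 22 to 25 it had 47, 52 and 6 UMIs, beside 333, 446 and 571 of *H2-DMb1*.

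No member was called in the other classes. In the endothelium, all 5 of its labels together, it was 0 of 6 tested, with 12.9% of 9660 genes called. *Cd74* had 48.8, 39.6 and 29.0 CPM there (log2 change -0.60, edgeR adjusted p 0.112) and *Ciita* 10.1, 14.9 and 7.70 (-0.71, edgeR adjusted p 0.329). Both were lowest in *Angpt1*ΔNC, where SC gave 15 cells. With plain library totals *Cd74* passed the threshold (log2 change -0.77, edgeR adjusted p 0.0169, range over alternatives 0.0169 to 0.830), while that scaling moved the median of all genes to -0.19. In labels 4 and 5 it was 0 of 6, with 5.72% of 12341 genes called. In label 3 it was 0 of 5, with 0% of 8953 genes called by edgeR, 521 at an unadjusted p under 0.05 and 25 called by DESeq2. *Ciita* had too few UMIs for the test in labels 22, 25 and 3, in labels 4 and 5 and in the TM labels, and *H2-DMa* in label 3 and in the endothelium.

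Of 31 other genes of the class II pathway 28 were analysed here (not *H2-Ea-ps*, *H2-Ea* and *Ifi30*). In label 24, 1 rose and 2 fell of 24 tested: the costimulatory ligand *Cd80* (log2 change 0.96, edgeR adjusted p 0.0182), *H2-DMb2* and *Irf1*, an interferon-induced transcription factor (328, 254 and 104 CPM, log2 change -1.48, edgeR adjusted p 0.000663). In label 22, 1 rose and 2 fell of 19, namely the cathepsin *Ctsl* (26, 145 and 225 UMIs, log2 change 1.45, 0.88 without control replicate 1 and 2.60 without control replicate 2), *H2-DMb2* (-1.55) and *Irf1* (-1.72). In the TM labels 4 of 21 fell and none rose, among them *Irf1* (-1.33, with -1.02 without control replicate 1 and -1.58 without control replicate 2), the protease *Lgmn* (-0.78) and *Socs1*, a brake on interferon signalling (-0.64). *Irf1* thus fell in 3 classes, and in label 23 (105, 67.1 and 30.6 CPM) and in labels 4 and 5 it was below both controls without a call. It was not below both in the endothelium (291, 218 and 294 CPM), in label 3 (144, 10.9 and 23.9) and in label 25 (0, 57.1 and 10.9, not tested). In the endothelium 2 of 18 rose (*Creb1*, 0.71, and *Socs1*, 0.75) and 1 fell (the receptor chain *Ifngr2*, -0.58), and in labels 4 and 5 *Rfx5* rose (1.03) and *Lgmn* fell (-1.43) of 22. None was called of 22 in label 23, of 5 in label 25 and of 15 in label 3. Of all genes, 4.48% were called in label 24, 4.03% in label 22, 8.97% in the TM labels, 12.9% in the endothelium, 5.72% in labels 4 and 5, 0.34% in label 23, 1.97% in label 25 and 0% in label 3. The median log2 change of the list was 0.07 in label 24, -0.47 in label 22, -0.13 in the TM labels and -0.14 in the endothelium. Of the 15 calls in this list, 3 held under all alternatives with a test, those of *H2-DMb2* and *Irf1* in label 24 and of *Lgmn* in labels 4 and 5.

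Other pathway genes of label 24 were not called. *H2-Oa* had 4.91, 5.06 and 11.1 CPM (log2 change 1.15, edgeR adjusted p 0.114), *Ctsl* 674, 739 and 1014 (0.52, edgeR adjusted p 0.111) and *Nfyb* 19.6, 18.3 and 10.4 (-0.86, edgeR adjusted p 0.106). *Ctss* had 25.8, 26.7 and 20.5 UMIs per 10,000, *Cd83*, which stabilizes class II at the surface, 24.4, 19.7 and 18.4, and the costimulatory *Cd86* 7.47, 7.60 and 7.50. *Il10*, a cytokine that lowers class II at the surface, had 3.20, 4.58 and 4.29. *Ifng*, the main inducer of *Ciita*, had only 8, 5 and 2 UMIs in label 22, where its T and killer cells would be found.

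All members but *Ciita* (chromosome 16, 10480059 to 10528418) and *Cd74* lie close together on chromosome 17 of build GRCm38. From *H2-DMa* (34119541 to 34139101), *H2-DMb2* (34143307 to 34151555) and *H2-DMb1* (34153072 to 34160230) the order runs to *H2-Ab1* (34257689 to 34269419), *H2-Aa* (34282744 to 34287823, reverse strand) and *H2-Eb1* (34305867 to 34316674). Of the genes tested between *H2-Oa* and *H2-Ea-ps* (34092340 to 34344645), an interval chosen after seeing the data, 5 of 14 were called in label 24 (35.7%, beside 4.48% of all genes and 7.37% of those within 2 Mb on either side): *H2-DMa*, *H2-DMb2*, *Tap1*, *Tap2* and *H2-Eb1*. It was 3 of 13 in label 22 (*H2-DMa*, *H2-DMb2* and *Psmb9*), 1 of 13 in label 23, 1 of 7 in label 25, 3 of 11 in the TM labels, 2 of 9 in the endothelium (*Tap1* and *Psmb8*), 0 of 11 in labels 4 and 5 and 0 of 9 in label 3. Within 2 Mb on either side 7.55% were called in label 22, 1.59% in label 23, 10.5% in label 25, 12.5% in the TM labels, 21.3% in the endothelium, 9.84% in labels 4 and 5 and 0% in label 3, so the endothelial interval was like its surroundings. The interval held called genes of both directions. *H2-Eb1* shares 77.9% of 779 aligned bases with its neighbour *H2-Eb2*.

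Promoter sequences were at hand for 4 of the 7 members (5 entries from 250 bases before to 50 after the start, RefSeq, GRCm38.p6), namely *H2-Aa*, *H2-DMa*, *H2-DMb1* and *H2-Eb1*, and not for *H2-Ab1*, *Ciita* and *Cd74*. Class II promoters are known for an X box and a Y box, which RFX and NF-Y bind, and these sequences are shown because the same box letters recur in 3 of these 4 members. The letters CTNGNAACT, on either strand, were in 1347 of 32851 promoters (4.10%) and TGATTGG in 2568 (7.82%). CTNGNAACT stood 5 to 40 bases before TGATTGG in only 5 of 32851 (0.0152%), those of *H2-Aa*, *H2-DMb1*, *H2-Eb1*, *1700048F04Rik* and *BC051142*, and in neither *H2-DMa* window. Of 21 other pathway genes with a promoter, 0 had CTNGNAACT and 8 had TGATTGG, among them *H2-DMb2*, *H2-Oa*, *H2-Ob* and *H2-Eb2*. The letters were chosen after the sequences were seen, and a match is a description. In the stretches from the first to the last box letter (chr17:34287867-34287907, reverse strand; chr17:34305773-34305812, forward; chr17:34153094-34153134, forward) the capitals mark the letters searched:
H2-Aa: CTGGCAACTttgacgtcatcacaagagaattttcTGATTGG
H2-Eb1: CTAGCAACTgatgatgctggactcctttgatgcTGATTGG
H2-DMb1: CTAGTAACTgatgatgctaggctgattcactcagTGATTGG
The first box began 84, 94 and 97 bases before the RefSeq start of *H2-Aa*, *H2-Eb1* and *H2-DMb1*, which for *H2-DMb1* lies inside the GENCODE gene given above, with 25, 24 and 25 bases between the boxes. *H2-Eb1* and *H2-Aa* share the box letters with nearly the same distance between them. These are sequences of the reference build, while the mice were of mixed strain. The part of promoters in any difference between the libraries was not tested.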

How the data were processed

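Single cells of the iridocorneal angle were measured in 3 droplet libraries. The authors aligned reads to mm10 and made UMI counts with Cell Ranger, and the deposited counts are raw, while the deposited cluster labels come from integration with Seurat 3.1.3. The deposited integrated values, on a natural log scale, were not used. Levels are means over kept cells of UMIs per 10,000, and shares have exact Clopper-Pearson 95% intervals. A share of 0 is given with the limit that 3 cells set, which holds for cells with a UMI and not for cells that express the gene. Cells were thinned by drawing UMIs without replacement.

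Counts summed per class and library were tested with edgeR 4.0.16 (R 4.3.3, TMM, filter on low counts, quasi-likelihood). The lone *Angpt1*ΔNC library is assumed to vary like the controls, with 1 residual degree of freedom, and the test was tried on simulated data. DESeq2 1.42.0, other scalings, no filter, equal cell numbers, thinned cells, each control left out and, added after seeing the data, male-typed cells and cells without 10 or more class II UMIs were alternatives. Genes named are the 7 members, called or well-known genes of the pathway list, and the 10 most alike in pattern, and 1 called gene of the pathway list is not reported here. The members and lists were chosen with earlier results of these data known. Gene positions are from GENCODE M21. Python 3.11.15, numpy 2.4.6, pandas 2.3.3, scipy 1.17.1 and matplotlib 3.10.9 were used.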

Additional observations from a re-analysis of the deposited data

Results flagged for a closer look

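A difference between groups of cells was marked where both controls and *Angpt1*ΔNC were ordered in opposite ways in 2 classes. *Cd74* had a log2 change of -1.12 in label 22 and of 0.55 in the TM labels (14.99, 19.3 and 25.2 CPM there, and a log2 change of -0.09 without cells of 10 or more class II UMIs), and the difference between these classes was not tested. *H2-DMb1* had a log2 change of 0.99 in the TM labels and of -1.07 in label 22 (48.2, 54.5 and 24.6 CPM), and this difference was not tested either. The value of *Cd74* in the TM labels and the label 22 value of *H2-DMb1* did not pass their own tests.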

How the results depend on the processing

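No called result changed direction, while values that were not called did, such as *Cd74* in the TM labels (-0.09 without cells of 10 or more class II UMIs). Leaving out a control in turn gives fold changes without a test, with the lone libraries assumed to vary alike. No paired analysis was possible because the sample labels name no pairs of libraries, and there is 1 knockout library. Of the members called, DESeq2 called 0 in label 22, 1 in label 24 and 1 in the TM labels. RLE size factors gave 1 in label 22, 0 in label 23 and 1 in label 24. Plain library totals gave 1 in the endothelium, and moved the median log2 change of all genes to -0.20 in label 23, -0.13 in label 25, -0.12 in labels 4 and 5 and -0.19 in the endothelium. No filter gave 1 in label 22, equal numbers of cells 1 in label 24 and 1 in the TM labels, thinned cells 0 in label 22 and 0 in label 25, and male-typed cells, added after seeing the data, 1 in label 22 and 1 in label 24. The main counts were 2, 1, 2 and 1 in labels 22 to 25, 0 in the endothelium and 3 in the TM labels. Without a filter *Cd74* passed in the TM labels (log2 change 0.55, adjusted p 0.0192, range over alternatives 0.0192 to 0.858). Thinning lowered the UMIs per cell and also left out cells with too few UMIs. In label 25 it kept 14 of 56, 26 of 81 and 11 of 58 cells. In label 22 it kept 63 of 89, 95 of 133 and 81 of 105. The parts of fewer UMIs and of fewer cells in the thinned values were not told apart. The cause of the other changes was not tested.

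The values that follow are means of the controls. The share of cells with *H2-Aa* in label 24, 76.9%, was 70.2 and 63.9% at 2000 and 1000 UMIs and 72.3 and 63.7% at a minimum of 2 and 5 UMIs. In labels 4 and 5 it went from 3.09 to 0.448, 0.199, 0.349 and 0.101%, and for *Ciita* in SC from 24.2 to 5.51, 2.67, 14.8 and 2.38%. With the C1q genes alone as tracers the ratio was 46.5 in SC, from only 1 and 2 UMIs each of *C1qb* and *C1qc* and none of *C1qa*. It was 2.74 in labels 23 to 25 and 2.73 outside 22 to 25 and the endothelium. With *Lyz2* alone it was 5.04 and 2.89 in the latter groups, and SC of control replicate 1 gave no value since it had 0 such UMIs. Without cells of 5 or more class II UMIs which removes cells by the value itself, it was 3.16, 0.0104 and 0.638, against 7.81, 1.18 and 0.943. Labels 22 to 25 held 83.8% of class II UMIs over all called cells. At 5 and 20 UMIs for a class II-high cell, 61.7 and 78.0% of these had leukocyte UMIs (69.3% at 10), and they were 0.779 and 0.168% of cells (0.388%). The *Lyve1* ratio in label 24, 0.119, was 0.137 at 1000 UMIs and 0.0192 at 2 *Lyve1* UMIs, where few cells remained, and the *Folr2* ratio, 0.224, was 0.187. With either control left out, the *H2-Aa* share in label 24 was 74.6 to 79.2%, the *Ciita* share in SC 22.2 to 26.1% and the SC ratio 6.50 to 9.11. The male-typed test was not run in label 25 (3, 10 and 3 such cells), and *Ccr2* at 2 UMIs gave no value. The *Ciita* shares thus depend on depth.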
